A study of Homo sapiens with 6 samples.

Results

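The genes described here are 9 members of the p53 pathway, taken by name from the 58735 genes of the deposited table and followed across 6 RNA-seq libraries. They are the regulators MDM2, MDM4 and PPM1D, which sit in feedback loops around p53, and the p53 targets ZMAT3, PHLDA3, TP53INP1, TP53I3, RRM2B and BTG2, which are less shared with integrated stress signalling than targets such as ATF3. All 9 had a mean of 1 or more FPKM (fragments scaled to exon length and to a size set for each library) and were among the 12960 genes tested. The cells were C4-2B MDVR, a prostate cancer line bred from C4-2B under enzalutamide until it grew in the drug. C4-2B itself descends from LNCaP. For 2 days they received 10 or 20 uM PTUPB, which blocks both the soluble epoxide hydrolase and cyclooxygenase-2 enzymes. The antiandrogen enzalutamide was combined with 10 uM and with 20 uM PTUPB, at a dose that the labels of these mixtures do not give, and was given alone at 20 uM. Control cells received DMSO. Each of the 6 groups is 1 mRNA library, so single pairs of libraries carry no replicate error. Depth recovered from the FPKM ran from 20156523 to 29450436 fragments per library. Both 20 uM PTUPB libraries were the shallowest, and their part in the results below was not tested beyond the rescaling given at the end. Of 10 luminal prostate markers all were at 1 or more FPKM in the 4 libraries with 0 or 10 uM PTUPB, summing to 899 to 1204 FPKM. At 20 uM 8 of the 10 were at that level, and 8 of the 10 fell by limma, against 18.2% of all genes tested. The sum came to 268 FPKM with enzalutamide and 250 FPKM without it. In RNA from a whole culture fewer cells of a type and less RNA per cell cannot be told apart. Basal, blood and endothelial markers (4, 5 and 3 genes) reached no more than 0.485 FPKM in any library, and of 5 stromal markers only COL1A1 was at 1 or more FPKM, at 2.28 to 6.47 FPKM. COL1A1 rose at 20 uM (0.96, adjusted p 0.016 by limma). The part of these marker changes in the results was not tested.

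The p53 protein is a transcription factor that stops division, promotes repair or triggers death after DNA damage and other stress. It is kept low by MDM2, a ubiquitin ligase that marks it for destruction, and by MDM4, a relative that binds its activation domain and pairs with MDM2. PPM1D, also called WIP1, is a phosphatase that removes the activating phosphates from p53 and its kinases. MDM2 and PPM1D are themselves switched on by p53, which closes the loop, and the other 6 genes carry out parts of its programme. The labels do not give the p53 status of C4-2B MDVR cells.

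An internal promoter of MDM2 is known to hold a pair of p53 sites, and its sequence is shown because this gene is the usual readout of the loop. The p53 consensus half-site is 10 bases long, with 3 purines, a C, 2 bases that are A or T, a G and 3 pyrimidines, and a full site is a pair of half-sites with 0 to 13 bases between them. The motif is its own reverse complement, so 1 search covers both strands. RefSeq promoter windows (GRCh38.p14, 250 bases before to 50 bases after a transcript start) were searched for the pair with the fewest mismatches, and 6 of the 9 genes had 10 windows in the table. An internal MDM2 window held a match with 2 mismatches, which is present at that level or better in 7.82% of 35116 windows, and a further match with 3 mismatches 18 bases after it. This stretch, chr12:68808883-68809001 on the plus strand, lies within an intron of 7 MDM2 transcripts of GENCODE 29. Its end was set so that it met no annotated MDM2 exon, and exons of other genes were not checked. The capitals mark the 2 matches.
MDM2 internal promoter: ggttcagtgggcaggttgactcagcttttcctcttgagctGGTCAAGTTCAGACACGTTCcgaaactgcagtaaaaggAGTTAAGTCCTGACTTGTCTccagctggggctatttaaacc

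The best match of each other gene is set beside it to show how the genes differ, with the half-sites in capitals and the bases between them in lower case. ZMAT3 (chr3:179071867-179071892, minus strand) and TP53I3 (chr2:24085047-24085075, minus strand) had 3 mismatches, which 39.1% of all windows reach. BTG2 (chr1:203305505-203305524, plus strand) and PPM1D (chr17:60599994-60600013, plus strand) had 4, which 84.2% reach, and MDM4 (chr1:204516186-204516205, plus strand) had 5, which 98.9% reach. The shares are per window, whereas MDM2 had 4 windows and ZMAT3 had 2, and the best was taken. The windows not shown, at the upstream MDM2 start and a further ZMAT3 start, had 4 mismatches at best. At 3 or more mismatches a match is common, and these lines describe letters, not binding.
ZMAT3: GGGCCTGCTCcgccaaGCACATGCGC
TP53I3: GGTCTCGTTCcctagagagAAGGAAGTTT
BTG2: GGGAAAGTCCGGGCAGAGCC
PPM1D: AAGCAAACTAGGAGATGCGC
MDM4: TCACAAGACCCTGCAAGTCC

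With 20 uM PTUPB 8 of the 9 genes rose, and TP53INP1 alone did not pass. Of all genes tested, 15.9% rose and 18.2% fell in the same comparison. The 9 genes were chosen with earlier results of these data known, so the count beside these shares is a description and not a test. The fitted effect is the log2(FPKM + 1) difference in an additive limma model over the 6 libraries, with PTUPB at 3 levels plus enzalutamide, two-sided, and with Benjamini-Hochberg adjustment over all 12960 genes. Effects ran from 0.05 for TP53INP1 to 2.38 for PHLDA3 with a median of 1.77, against a median of 0.0045 over all genes. Because groups hold 1 library each, its p-values measure departures from additivity and not the spread between cultures.

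Among the feedback genes MDM2 (ENSG00000135679, chr12:68808176-68850686, plus strand of GRCh38) was the most abundant. With enzalutamide it stood at 9.75, 10.98 and 38.7 FPKM at 0, 10 and 20 uM PTUPB, against 9.87, 10.2 and 33.3 FPKM without enzalutamide. The 4 libraries at 0 and 10 uM lay close together, and both 20 uM libraries lay far above them. At 20 uM MDM2 was 3.97-fold higher than at 0 uM with enzalutamide and 3.37-fold higher without it, and the fitted effect was 1.77 (SE 0.17, adjusted p 0.0033 by limma). Its exons share 9.21% of their bases with 3 other annotated genes, AC025423.2, AC025423.4 and CPM, and the highest of these was at 0.0311 FPKM.

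MDM4 (ENSG00000198625, chr1:204516379-204558120, plus strand), the p53-binding relative of MDM2, showed the smallest change of the 8 that rose. With enzalutamide it was at 6.27, 7.30 and 14.7 FPKM at 0, 10 and 20 uM PTUPB, against 6.04, 6.86 and 11.3 FPKM without enzalutamide. It was 2.34-fold higher at 20 than at 0 uM with enzalutamide and 1.86-fold higher without it, so only the pair with enzalutamide reached log2 1. The fitted effect was 0.96 (SE 0.17, adjusted p 0.013 by limma).

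PPM1D (ENSG00000170836, chr17:60600183-60666280, plus strand) had the most unequal folds in the arms with and without enzalutamide. In the enzalutamide arm it was at 2.53, 2.37 and 16.2 FPKM across the 3 PTUPB doses, against 2.78, 3.55 and 8.76 FPKM in the arm without it. The highest library was thus the mixture with 20 uM, at 1503 fragments, and the second was 20 uM PTUPB alone, at 1044. The 20 uM library was 6.41-fold above 0 uM with enzalutamide (95% counting interval 5.71 to 7.21) and 3.15-fold without it (2.81 to 3.54). These intervals, exact binomial on the fragments, cover counting error only. The fitted effect of 20 uM was 1.83 (SE 0.31, adjusted p 0.011 by limma), with the largest SE of the 8 genes that rose.

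**Figure D1:**
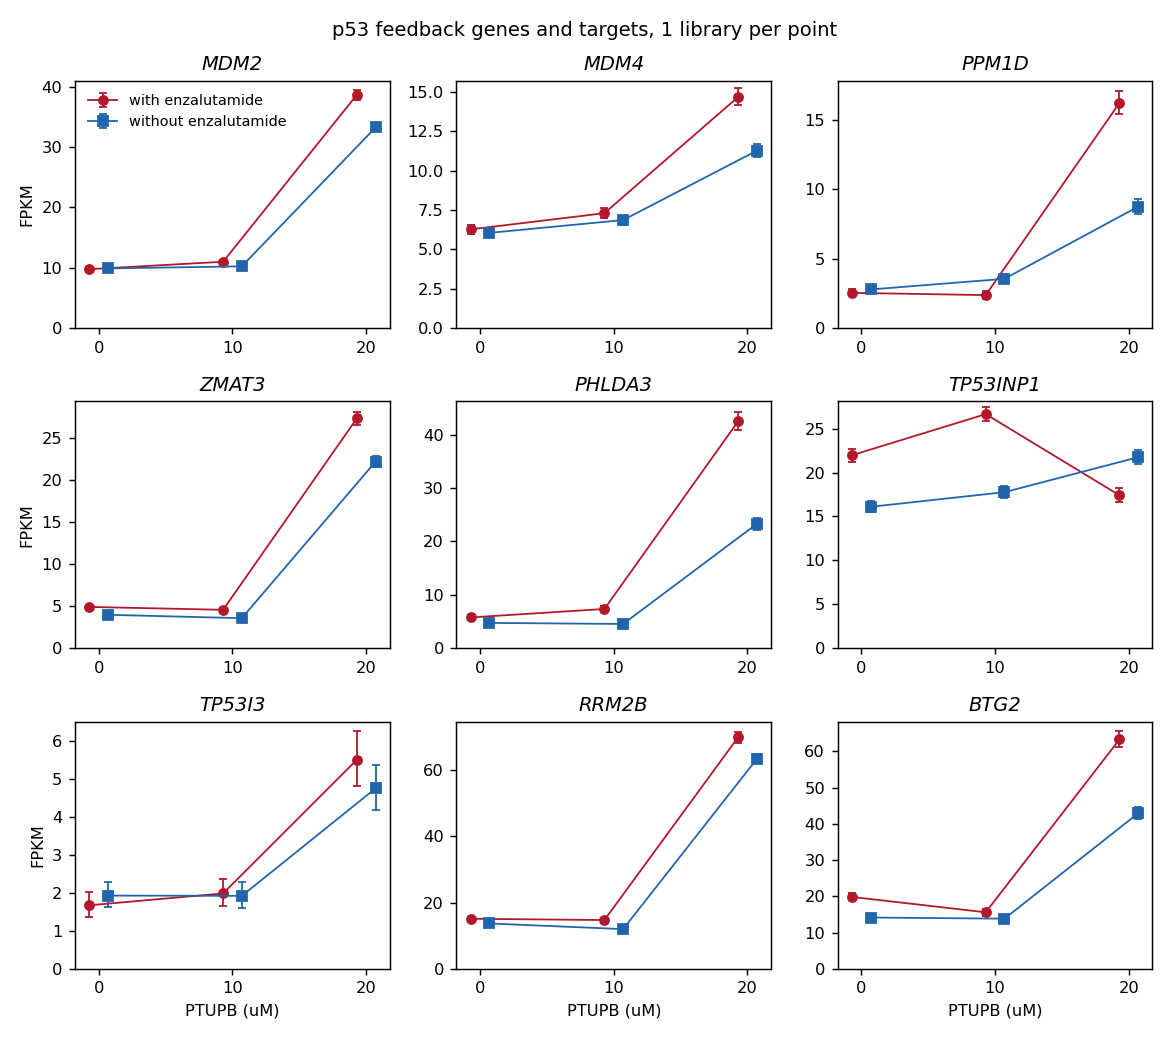
FPKM of each of the 9 genes (vertical axes, linear from 0) by PTUPB dose in uM (horizontal axes), with enzalutamide as red circles and without it as blue squares, 1 library per point, bars giving the 95% Poisson counting interval. In 8 panels both 20 uM points lie above the other 4, and in the TP53INP1 panel the 20 uM library with enzalutamide, at 17.4 FPKM, lies below that without it, at 21.7 FPKM.

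The growth-restraining targets PHLDA3, ZMAT3 and BTG2 all rose. PHLDA3 (ENSG00000174307, chr1:201464383-201469237, minus strand) encodes a pleckstrin-homology protein that competes with AKT for membrane lipids. It was at 5.79, 7.37 and 42.5 FPKM with enzalutamide at 0, 10 and 20 uM PTUPB, against 4.77, 4.56 and 23.3 FPKM without enzalutamide. Its 20 uM library was 7.34-fold above 0 uM with enzalutamide and 4.89-fold above it without, and its fitted effect of 2.38 (SE 0.20, adjusted p 0.0029 by limma) was the highest of the 9. One overlapping gene, AC096677.2, shares 19.1% of its exon bases and was listed at 0 FPKM in every library.

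ZMAT3 (ENSG00000172667, chr3:179017223-179072279, minus strand) encodes a zinc-finger protein that binds RNA and acts on splicing and mRNA stability. Levels with enzalutamide were 4.91, 4.57 and 27.3 FPKM at 0, 10 and 20 uM PTUPB, against 3.98, 3.58 and 22.1 FPKM without enzalutamide. The fold at 20 over 0 uM was nearly equal in both arms, 5.55 with enzalutamide and 5.56 without it. Its effect was 2.24 (SE 0.16), with the lowest adjusted p of the 9 genes, 0.0023 by limma.

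BTG2 (ENSG00000159388, chr1:203305491-203309602, plus strand) encodes an antiproliferative protein that recruits the CCR4-NOT deadenylase. It stood at 19.8, 15.6 and 63.3 FPKM with enzalutamide at the rising PTUPB doses, against 14.1, 13.8 and 42.9 FPKM without it. Folds at 20 over 0 uM were 3.19 with enzalutamide and 3.03 without it, and the effect was 1.58 (SE 0.19, adjusted p 0.0049 by limma). Both 20 uM libraries exceeded the highest of the other 4 libraries, that of enzalutamide alone.

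RRM2B and TP53I3 code for enzymes. RRM2B (ENSG00000048392, chr8:102204502-102239118, minus strand) is the p53-inducible small subunit of ribonucleotide reductase, which supplies deoxynucleotides for repair outside S phase. It was at 15.1, 14.7 and 69.9 FPKM with enzalutamide at 0, 10 and 20 uM PTUPB, against 13.7, 12.0 and 63.3 FPKM without enzalutamide. The fold at 20 over 0 uM was 4.63 in both arms, and its effect was 2.14 (SE 0.17, adjusted p 0.0029 by limma). At 20 uM it was the most abundant of the 9 genes, above 95.4% of all genes tested with enzalutamide and 96.2% without it. At 0 and 10 uM TP53INP1 led, followed by BTG2 and then RRM2B.

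TP53I3 (ENSG00000115129, chr2:24077433-24085861, minus strand), a quinone oxidoreductase tied to oxidative stress, was the least abundant of the 9 in every library. With enzalutamide it was at 1.67, 1.98 and 5.49 FPKM at 0, 10 and 20 uM PTUPB, against 1.92, 1.92 and 4.74 FPKM without enzalutamide. These rest on 109 to 259 fragments, so the folds at 20 over 0 uM are loose, 3.29 with enzalutamide (95% counting interval 2.61 to 4.17) and 2.46 without it (1.99 to 3.06). The fitted effect was 1.13 (SE 0.19, adjusted p 0.010 by limma). FAM228B, on the opposite strand, shares 3.46% of its exon bases and stood at 1.19 FPKM at 20 uM with enzalutamide and 1.22 FPKM without it, against 0.382 and 0.633 FPKM at 0 uM.

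TP53INP1 (ENSG00000164938, chr8:94925972-94949411, minus strand) encodes a stress protein that promotes p53 phosphorylation and autophagy, and it was the only one of the 9 that did not pass at 20 uM. It was at 21.97, 26.6 and 17.4 FPKM with enzalutamide at 0, 10 and 20 uM PTUPB, against 16.1, 17.8 and 21.7 FPKM without enzalutamide. Without enzalutamide the 20 uM library was 1.35-fold above 0 uM (95% counting interval 1.28 to 1.42), whereas with enzalutamide it was at 0.793 of the 0 uM level (0.748 to 0.839). The fitted 20 uM effect was 0.05 (SE 0.26, adjusted p 0.91 by limma), and its sign turned to -0.10 without the control library, to -0.35 without 20 uM PTUPB alone and to -0.01 after scaling by total fragments. Whether the dose effect depends on enzalutamide was tested by an interaction linear in dose, with 1 residual degree of freedom. The change of the enzalutamide difference per 10 uM PTUPB was -0.37 (SE 0.21) and did not pass (adjusted p 0.60 by limma). On the log2(FPKM + 1) scale that difference was 0.43, 0.56 and -0.30 at 0, 10 and 20 uM, which is not linear. Such a departure enters the error, so the test cannot show that the 2 arms were alike.

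**Figure D2:**
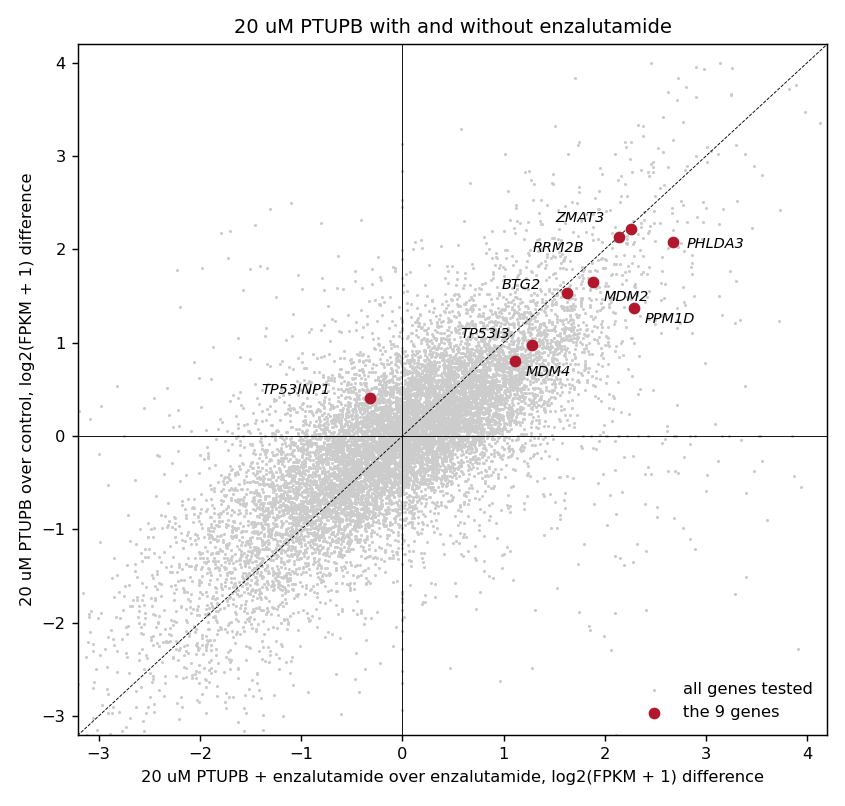
Log2(FPKM + 1) difference at 20 uM PTUPB with enzalutamide over enzalutamide alone (horizontal) against that at 20 uM PTUPB over control (vertical), 1 point per gene, the 9 genes in red on all 12960 tested in grey, of which 137 lie outside the axes, with a dashed line of equality. The 8 genes that rose all lie in the upper right quadrant and to the right of the line, with ZMAT3 and RRM2B close to it, and TP53INP1 lies in the upper left at -0.32 and 0.41.

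By single pairs on the log2(FPKM + 1) scale, 8 of the 9 were higher by 1 or more at 20 uM with enzalutamide over enzalutamide alone. Among all genes 13.5% were. For 20 uM PTUPB over control the count was 6 of 9, against 9.47% of all genes, with MDM4 (0.80), TP53I3 (0.97) and TP53INP1 (0.41) short of that margin. TP53I3 was 2.46-fold higher in plain FPKM in this pair and fell short through the 1 FPKM added before the log. These pairs share no library.

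The higher dose was set directly against the lower one in the same model. At 20 over 10 uM the 8 genes rose, with effects from 0.78 for MDM4 to 2.34 for ZMAT3, and TP53INP1 was at -0.15 (SE 0.26, adjusted p 0.66 by limma); 16.5% of all genes rose. This comparison shares its 20 uM libraries with the one against 0 uM, so the 2 sets of values are not independent. RRM2B had an effect of 2.24 (SE 0.17, adjusted p 0.0027 by limma), PPM1D of 1.73 (SE 0.31, adjusted p 0.014) and MDM4 of 0.78 (SE 0.17, adjusted p 0.022). In single pairs PPM1D was 6.85-fold higher at 20 than at 10 uM with enzalutamide and 2.47-fold higher without it. TP53INP1 was at 0.653 of its 10 uM level with enzalutamide and 1.22-fold higher without it.

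At 10 uM none of the 9 genes passed against 0 uM, and neither did any gene of the table (0.0% of 12960). Limma gave 480 genes and 0 of the 9 at an unadjusted p under 0.05, and limma-voom called 0 genes. Effects of the 9 lay between -0.18 (BTG2, SE 0.19) and 0.20 (TP53INP1, SE 0.26). None of the 9 was higher or lower by log2 1 in a single pair. Across all genes 2.24% passed that margin upwards and 1.57% downwards with enzalutamide, and 1.62% upwards and 0.772% downwards without it. The 9 had folds at 10 over 0 uM from 0.786 to 1.27 with enzalutamide and from 0.875 to 1.28 without it.

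**Figure D3:**
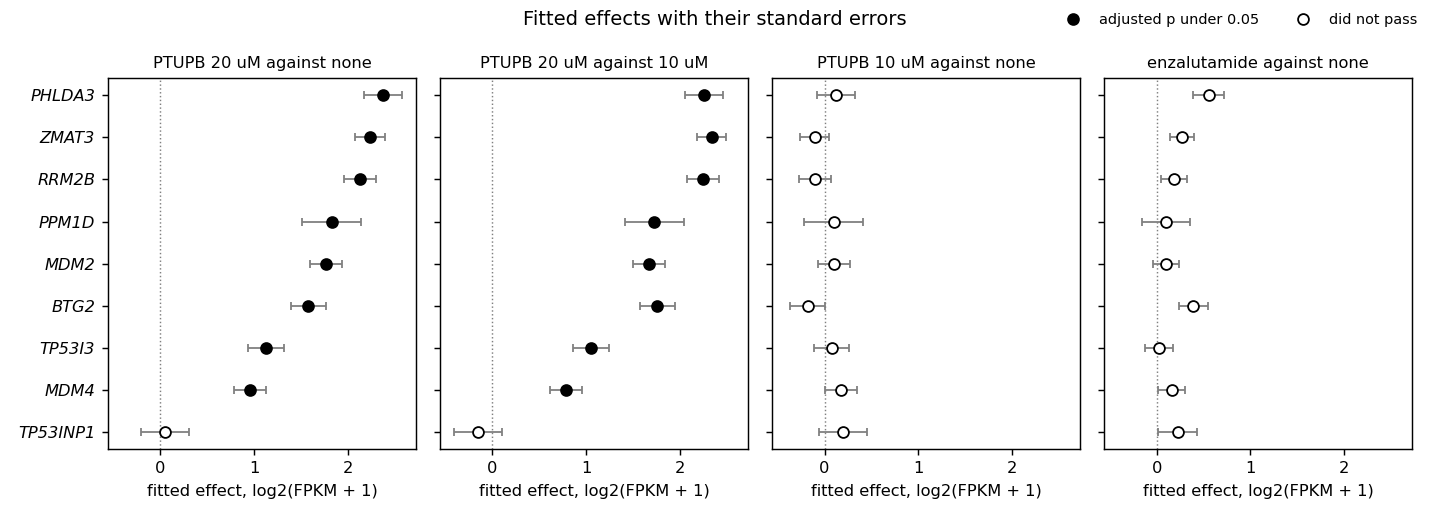
Fitted effects of the 9 genes on the log2(FPKM + 1) scale (horizontal) with their SE as bars for 4 comparisons, genes ordered down the page by the effect of 20 uM PTUPB, filled where the adjusted p by limma was under 0.05. The 8 filled points in each of the first panels, from 0.96 to 2.38 against none and from 0.78 to 2.34 against 10 uM, stand apart from the open points of 10 uM PTUPB and enzalutamide.

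For enzalutamide none of the 9 passed the fitted test, nor did any other gene as deposited (0.0% of 12960 by limma, 626 genes at an unadjusted p under 0.05). Limma-voom called 1 gene, and limma after TPM called 9, of which 2 rose, with none of the 9 described here among them. All 9 effects were above 0 as deposited, from 0.03 for TP53I3 to 0.55 for PHLDA3, with a median of 0.18 against 0.01 over all genes. Rescaling to TPM put the median of all genes at -0.23 and turned 6 of the 9 below 0, so no direction is drawn from them. PHLDA3 (0.55, SE 0.17) and BTG2 (0.39, SE 0.15) had unadjusted p-values under 0.05 and adjusted p-values of 0.92 by limma, and their fitted effects stayed above 0 after TPM. As deposited, PHLDA3 was higher with enzalutamide by 1.21-fold at 0 uM, 1.62-fold at 10 uM and 1.82-fold at 20 uM PTUPB. After TPM, computed for these pairs after seeing the data, it was at 0.902 of control at 0 uM, so that pair turned, and 1.57-fold and 1.46-fold higher at 10 and 20 uM. BTG2 was higher with enzalutamide by 1.40-fold, 1.13-fold and 1.47-fold as deposited, and by 1.04-fold, 1.09-fold and 1.18-fold after TPM. PPM1D was at 0.912 and 0.668 of the matched library at 0 and 10 uM and 1.85-fold higher at 20 uM as deposited. After TPM it was at 0.677 and 0.647 at 0 and 10 uM and 1.49-fold higher at 20 uM, so the size of that rise depends on the scaling. The PPM1D interaction, linear in dose, of 0.46 per 10 uM (SE 0.25) did not pass (adjusted p 0.59 by limma). No gene passed the interaction test by limma (0.0% of 12960, 1219 genes and 0 of the 9 at an unadjusted p under 0.05; limma-voom called 13 genes). After TPM 301 genes passed it, 191 of them upwards, and by total fragments 9, with none of the 9 described here among them.

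Levels of partner genes were compared within each library, per exon length. The MDM2 to MDM4 ratio was 1.56, 1.51 and 2.63 with enzalutamide at 0, 10 and 20 uM PTUPB, against 1.63, 1.49 and 2.95 without enzalutamide. It was therefore high in both 20 uM libraries and nearly level in the other 4. RRM2B shares its role with RRM2, the small subunit used in S phase, and both pair with the large subunit RRM1. RRM2 fell at 20 uM (-2.92, SE 0.27, adjusted p 0.0033 by limma), to 10 fragments with enzalutamide and 12 without it, against 952 and 1352 fragments at 0 uM. The RRM2B to RRM2 ratio was 2.38, 4.76 and 682 with enzalutamide at the 3 doses, against 1.61, 1.68 and 664 without it, and at 20 uM it rests on those few RRM2 fragments. RRM1 was at -0.52 (SE 0.28) and did not pass (adjusted p 0.20), and the RRM2B to RRM1 ratio was 0.567, 1.09 and 3.29 with enzalutamide, against 0.504, 0.535 and 3.95 without it.

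**Figure D4:**
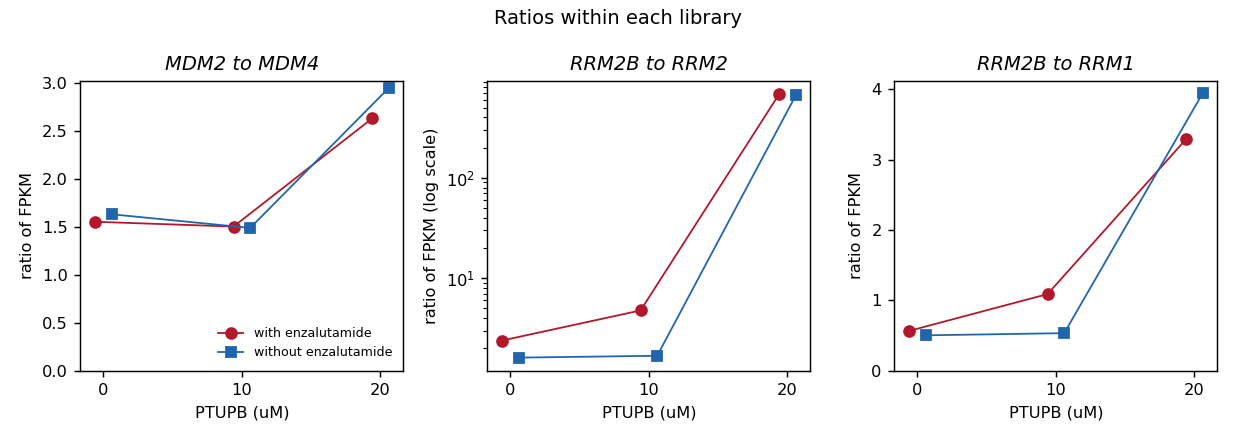
Ratio of FPKM within each library (vertical, linear from 0 for MDM2 to MDM4 and RRM2B to RRM1, log scale for RRM2B to RRM2) by PTUPB dose in uM, with enzalutamide as red circles and without it as blue squares. All 3 ratios are highest at 20 uM, and the RRM2B to RRM2 ratio reaches 682 with enzalutamide and 664 without it.

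Other genes of the pathway were read from lists written from general knowledge. Their counts stand beside 15.9% of all genes tested that rose and 18.2% that fell at 20 uM. Of 10 p53 targets shared with integrated stress signalling 9 rose at 20 uM (median 1.58, highest ATF3 at 5.48), and DDIT4 did not pass (0.68, adjusted p 0.051 by limma). CDKN1A, the p21 inhibitor of cell cycle kinases, rose by 3.46 (SE 0.26) to 469 FPKM with 20 uM PTUPB plus enzalutamide and 427 FPKM with 20 uM PTUPB, against 48.4 FPKM with enzalutamide and 32.8 FPKM in control. GADD45A (4.28, SE 0.26) and SESN2 (2.44, SE 0.26) also rose. Of 8 tested death-linked targets out of 9 listed, 3 rose, 0 fell and 5 did not pass (median 0.55). The risers were the nuclease gene AEN (2.30, SE 0.33), the pore-forming BAX (1.15, SE 0.19) and the death receptor FAS (0.78, SE 0.21), and TRIAP1 was at 0.88 (SE 0.29, adjusted p 0.066 by limma). Of 15 tested targets for arrest, repair and metabolism out of 20 listed, 7 rose, 0 fell and 8 did not pass (median 0.68). SPATA18, which acts on mitochondrial quality, rose by 2.35 (SE 0.21). It was at 0.569 to 1.21 FPKM in the libraries at 0 and 10 uM, and at 6.44 and 7.84 FPKM at 20 uM. It thus met the filter on the mean only through the 20 uM libraries, and its place among the risers follows in part from that filter. The DNA damage genes XPC (1.46, SE 0.22), DDB2 (1.16, SE 0.17) and the translesion polymerase gene POLH (1.15, SE 0.17) also rose. The lists were chosen with earlier results of these data known.

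Regulators that act on the p53 protein form a further list. Of 23 tested, 3 rose, 2 fell and 18 did not pass, with a median of 0.31; among all genes tested 15.9% rose and 18.2% fell, so neither count stood above the whole table. CHEK2, a DNA damage kinase that phosphorylates p53, fell (-1.45, SE 0.23, adjusted p 0.0094 by limma), as did the repair kinase PRKDC (-0.72, SE 0.17, adjusted p 0.025). The acetyltransferase gene CREBBP rose (0.96, SE 0.16, adjusted p 0.010), and KAT5 was at 0.78 (SE 0.24, adjusted p 0.056). Close relatives of the 9 genes were split, with 4 of 13 tested rising, 4 falling and 5 not passing (median -0.34). In the BTG and TOB family BTG3 rose (2.14, SE 0.16) beside BTG2, whereas TOB1 fell (-1.92, SE 0.23). PHLDA2, a relative of PHLDA3, fell (-1.89, SE 0.29).

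**Figure D5:**
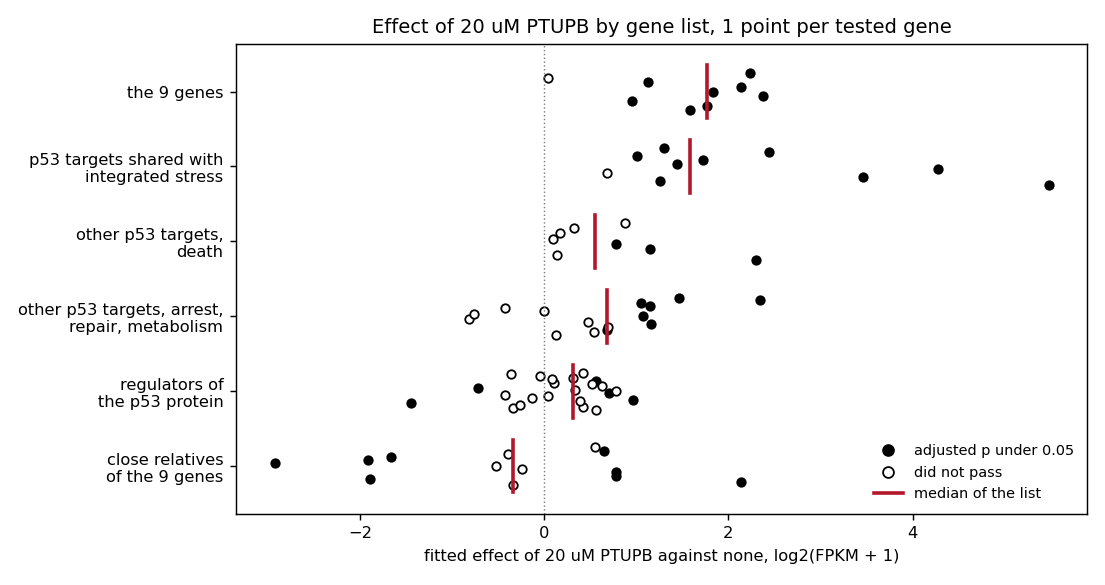
Fitted effect of 20 uM PTUPB on the log2(FPKM + 1) scale (horizontal) for the 9 genes and 5 lists (down the page), 1 point per tested gene, filled where the adjusted p by limma was under 0.05, with the list median as a red bar. The medians are 1.77 for the 9 genes, 1.58, 0.55 and 0.68 for the other p53 targets, 0.31 for regulators of the p53 protein and -0.34 for the relatives.

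Genes with a profile most like that of MDM2 were sought by Pearson r over the 6 libraries, on log2(FPKM + 1). The 6223 genes searched had a mean of 1 or more FPKM and a range of at least 1 on that scale. Since 2 libraries stand far from the other 4, a high r is common here, and 170 of these genes were above 0.99. Of the 9, TP53I3 (0.997), RRM2B (0.993) and ZMAT3 (0.993) were closest to MDM2, and TP53INP1 was at -0.10. The 5 other genes with the highest r, each at 0.999, were SH3GLB1, MAFG, ZFAND5, DINOL and TRIM53CP. DINOL and TRIM53CP were at no more than 0.159 FPKM in any library at 0 or 10 uM. They met the filter on the mean only through the 20 uM libraries, so much of their likeness to MDM2 was fixed by that filter. SH3GLB1, a membrane-curving protein gene, was at 27.3 FPKM with 20 uM PTUPB plus enzalutamide and 21.7 FPKM with 20 uM PTUPB, against 5.40 FPKM with enzalutamide and 5.34 FPKM in control. DINOL, a long noncoding RNA gene annotated on the opposite strand within the CDKN1A locus, had 65 and 64 fragments in these 20 uM libraries, against 1 and 0, and 146 of its 951 exon bases (15.4%) also lie in CDKN1A exons. The strand setting of the counting is not given, so DINOL values are uncertain. TRIM53CP is a pseudogene whose reads may come from its relatives.

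ZMAT3, PHLDA3 and RRM2B passed against 0 uM in all 13 alternatives, and these 3, MDM2 and BTG2 passed against 10 uM in all 13. The other calls depended on single libraries or on the filter. Without the control library 4 of the 9 passed at 20 over 0 uM (MDM2, ZMAT3, PHLDA3 and RRM2B), and without the enzalutamide library 3 did (ZMAT3, PHLDA3 and RRM2B); these fits have 1 residual degree of freedom in place of 2. Leaving out any one of the other 4 libraries left 8. Among all genes 982 passed without the control library and 324 without the enzalutamide library, against 4426 with all 6. At 20 over 10 uM 5 passed without the mixture with 10 uM, where MDM4, PPM1D and TP53I3 were lost, and 6 without 10 uM PTUPB alone, where MDM4 and TP53I3 were lost. MDM4 was also lost there without control and without enzalutamide, and 8 passed with either 20 uM library left out. Among all genes 1139 passed without that mixture, 838 without 10 uM PTUPB, 2578 without control and 2581 without enzalutamide, against 4325 with all 6. With no filter on low values 5 passed in each comparison, and MDM4, PPM1D and TP53I3 were lost. The effects of the 8 kept their sign in all 13 alternatives, and after TPM they ran from 1.07 to 2.56 at 20 over 0 uM.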

How the data were processed

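RNA of C4-2B MDVR cells was sequenced as paired-end mRNA libraries, 1 per group, per the labels' protocols. The values are FPKM as the authors deposited them, and HISAT and Cufflinks are named without versions per the submitters' processing notes. The genome build and strand setting are not given in the sources used here. All 58735 identifiers matched GENCODE 29 (GRCh38), and FPKM multiplied by GENCODE 29 exon length fell on whole multiples of 1 step per library for 100.0% of values above 0 (tolerance 0.05 fragments), which gave whole fragments and depth. The library size implied by that step differed from the fragment total. It was 29893166 against 27337933 fragments in control and 28246630 against 29450436 with enzalutamide alone. Of the 58735 genes, 12960 averaged at least 1 FPKM. On log2(FPKM + 1) values they were fitted in R 4.3.3 by limma 3.58.1, trend option on. Such folds understate the change of low genes. The fitted models were PTUPB at 3 levels plus enzalutamide, and this with enzalutamide by linear dose; an equal enzalutamide dose in the mixtures was assumed. Pairs of libraries were counted at a difference of 1 or more on the log2(FPKM + 1) scale. Alternatives were pseudocount 0.1, no filter, TPM, median of ratios, total fragments, limma-voom, no trend and each library left out. The members and lists were chosen with earlier results of these data known. Named genes were the 9, up to 4 per list by the absolute 20 uM effect, RRM1 and RRM2, and 5 by likeness to MDM2; DDIT4 was named after its value was seen. The method was run on simulated data with 200 changed genes and no enzalutamide effect. That setting is simpler than these data, so it gives no measure of their error. Python 3.11.15, numpy 2.4.6, pandas 2.3.3, scipy 1.17.1 and matplotlib 3.10.9 served other steps.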

Additional observations from a re-analysis of the deposited data

How the results depend on the processing

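No paired analysis was possible because each group holds 1 library and the labels carry no shared replicate numbers. The 8 called genes kept their direction in all 13 alternatives in both 20 uM comparisons. With no filter on low values 5 of the 9 passed against 0 uM and 5 against 10 uM, and 1201 and 868 of all genes did. With 1 library left out, 3 to 8 of the 9 passed against 0 uM and 5 to 8 against 10 uM, and 324 to 5403 and 838 to 5591 of all genes did. The TP53INP1 effect then ran from -0.35 to 0.44 against 0 uM and from -0.55 to 0.24 against 10 uM, and scaling by total fragments put it at -0.012 against 0 uM. At 10 uM, where nothing passed, TPM gave -0.0080 for MDM2 and -0.0027 for TP53I3. Leaving out 1 library there gave -0.30 to 0.50 for PPM1D, -0.11 to 0.36 for PHLDA3, -0.049 to 0.45 for TP53INP1 and -0.040 to 0.20 for TP53I3. For enzalutamide TPM gave -0.16 for MDM2, -0.085 for MDM4, -0.17 for PPM1D, -0.027 for TP53INP1, -0.21 for TP53I3 and -0.071 for RRM2B. Total fragments gave -0.028 for MDM2, -0.014 for PPM1D and -0.073 for TP53I3, and leaving out 1 library gave -0.26 to 0.36 for PPM1D and -0.050 to 0.10 for TP53I3. The interaction turned to -0.0058 by total fragments and -0.0017 by limma-voom for ZMAT3, and to -0.014 by total fragments for RRM2B; leaving out a library was not run for it, since no residual degree of freedom remains. The cause of these changes was not tested. After TPM the median effect over the whole table stood at -0.23 for enzalutamide, -0.15 for 10 uM PTUPB and 0.17 for 20 over 10 uM, where 2764 of 4669 called genes rose, against 2132 of 4325 as deposited. In the pair with enzalutamide over control, PHLDA3 was at 0.902 after TPM. Depth limits the values of TP53I3, which rest on 109 to 259 fragments, and of RRM2 at 20 uM.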
